A study of Homo sapiens with 12 samples.

Results

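A set of 10 genes of actin filament turnover was followed across the RNA-seq libraries of cis-chlordane-treated motor neuron cultures: the cytoplasmic actins ACTB and ACTG1, the filament-severing proteins CFL1, CFL2 and DSTN, the monomer-binding proteins PFN2, TMSB4X and TMSB10, and the filament-binding proteins ENAH and DBN1. The set was taken by symbol from a table of 28278 gene symbols by a rule that uses no measured value, although earlier results of these data were known when it was chosen. Islet1-GFP motor neuron cultures were differentiated from the human embryonic stem cell line WA09 (H9), which carries GFP as a reporter of ISL1, a transcription factor of motor neurons that some other neurons also express. All cultures shared this line, whose genotype the labels give as wild-type, and its differentiation protocol, and received cis-chlordane, an organochlorine pesticide, at 10 µM per the labels, or a matching volume of DMSO, for 16 h before dissociation and FACS. The sequencing methods of the study give another concentration, so the dose is uncertain. The 4 groups were control GFP-positive, treated GFP-positive, control GFP-negative and treated GFP-negative, with 3 libraries in each, and all derive from 1 cell line.

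Actin exists as free monomers and as filaments that grow at their barbed ends and are taken apart at their pointed ends. Thymosins hold monomers in reserve, profilins pass them to growing ends, cofilins and destrin sever and depolymerize old filaments, and Ena/VASP proteins and drebrin act on growing ends and along filament sides. In neurons this cycle drives the growth cone, the motile tip of the axon, and shapes dendritic spines. Actin genes are also classical targets of SRF, a transcription factor whose coactivators, the MRTFs, are held inactive by free actin monomers.

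Libraries held 23414935 to 38347050 counts with a median of 31553596, and every gene of the set had more than 3 counts in every library. Levels are given in CPM, the count of a gene relative to its library total, after TMM scaling across the 12 libraries. The label "motor neuron" was checked with 6 marker genes, whose summed level was 1166 to 1377 CPM in control GFP-positive and 192 to 215 CPM in control GFP-negative libraries. SLC18A3 was the largest part of this sum, averaging 791 CPM and 133 CPM in these groups. ISL1 averaged 65.7 CPM and 2.57 CPM, but its reporter was the basis of the sort, so it is no independent check. By the test used below, 5 of the 6 genes were higher in control GFP-positive cells. LHX3 was lower, at 1.91 against 4.44 CPM (log2 difference -1.31, adjusted p = 0.0066). The summed level of the 6 genes was 281 to 429 CPM in treated GFP-positive and 58.5 to 79.2 CPM in treated GFP-negative libraries. After treatment 5 of the 6 genes were lower in GFP-positive cells by the same test. ISL1 was among them, averaging 12.0 CPM in treated GFP-positive libraries (log2 fold change -2.38, adjusted p = 6.0e-12). Whether the sort took the same cells from treated and control cultures was not tested. The sum of 7 pan-neuronal markers was 13853 to 16882 CPM in control and 6969 to 8758 CPM in treated GFP-positive libraries. TUBB3 was its largest part, averaging 9510 CPM and 3704 CPM. Of the 7 markers, 5 were lower and 2 were higher after treatment in GFP-positive cells, and SNAP25 averaged 99.6 CPM in control and 188 CPM in treated libraries. In such bulk samples, fewer cells of a type and less RNA per cell cannot be told apart.

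The set held 3.10% ± 0.31 (SD, n = 3) of all counts in control GFP-positive libraries and 1.83% ± 0.27 (SD, n = 3) in treated GFP-positive libraries. In GFP-negative cells the share was 3.62% ± 0.04 (SD, n = 3) in control and 2.46% ± 0.10 (SD, n = 3) in treated libraries, and treated and control values did not overlap in either fraction. ACTG1 had the largest count of all genes in the 9 libraries outside control GFP-positive and ranked 2 in those 3.

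Per kilobase of transcript, ACTG1 led the set in control GFP-positive cells with 7597 ± 1580 CPM per kb (SD, n = 3). TMSB10 followed at 6632 ± 1166 CPM per kb, ACTB at 4774 ± 660 CPM per kb and TMSB4X at 2710 ± 412 CPM per kb. ACTG1 and TMSB10 overlapped between libraries, as did TMSB10 and ACTB. CFL1 stood at 1844 ± 324, DBN1 at 480 ± 58.7, PFN2 at 189 ± 24.8 and DSTN at 53.4 ± 5.1 CPM per kb, each apart from its neighbours in the order. ENAH (8.59 ± 1.32 CPM per kb) and CFL2 (8.19 ± 0.90 CPM per kb) were the lowest and overlapped. In treated GFP-positive cells TMSB10 (5044 ± 719 CPM per kb) and ACTG1 (4334 ± 854 CPM per kb) overlapped at the top, and ACTB stood at 1674 ± 367 CPM per kb.

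**Figure D1:**
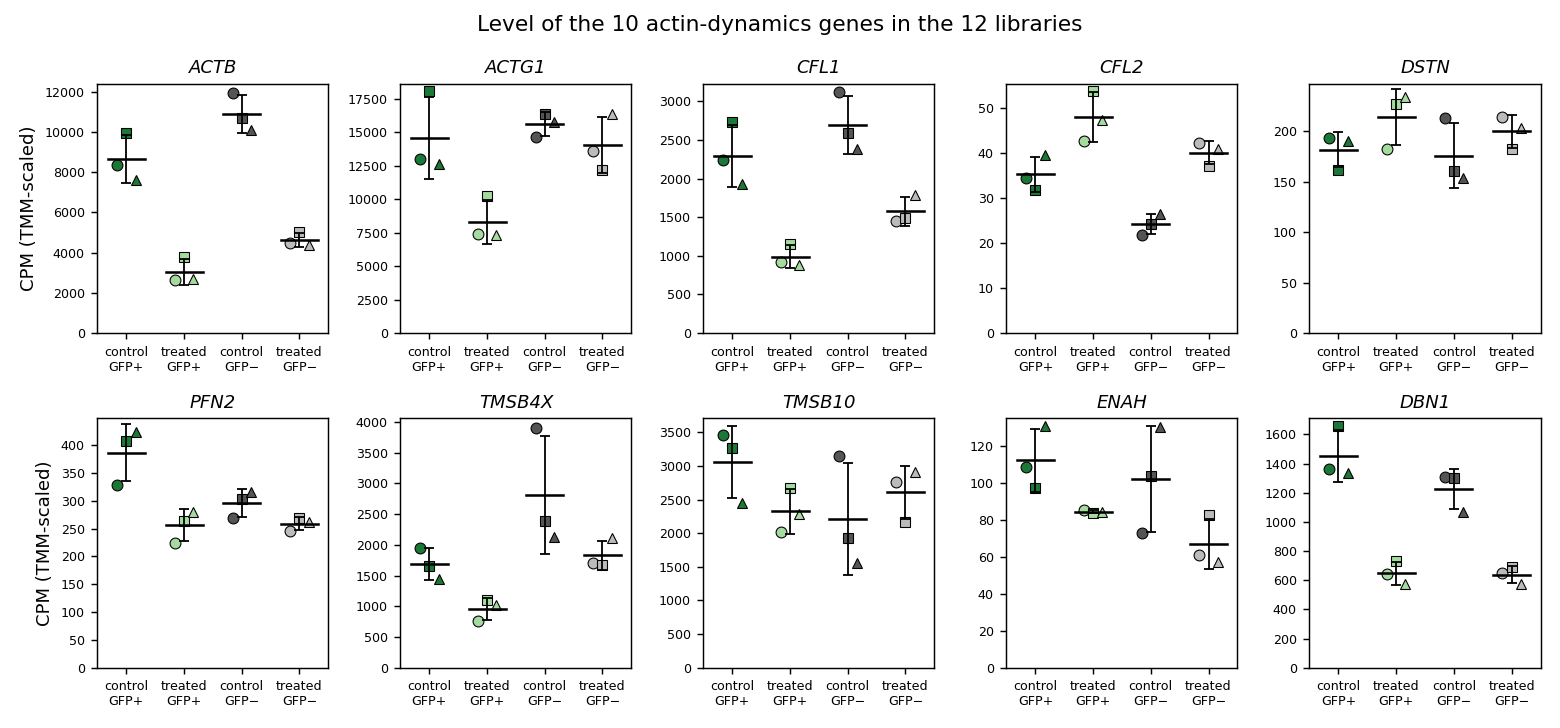
Level of each of the 10 genes in CPM (TMM-scaled, vertical axis from 0) in the 4 groups; circles, squares and triangles are replicates 1, 2 and 3, the horizontal line is the mean and the bar is 1 SD. ACTB, CFL1 and DBN1 are lower in all treated libraries than in any control library of the same sort fraction, CFL2 is higher, and control GFP-negative replicate 1 stands high for TMSB4X and TMSB10.

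To ask how the exposure altered these transcripts in motor neurons, treated and control GFP-positive libraries were compared with edgeR's quasi-likelihood F-test. ACTB, CFL1 and DBN1 each fell more than 2-fold, ACTG1, TMSB4X and PFN2 fell by less, and CFL2 rose. Of the 10 genes, 6 were lower and 1 was higher at an adjusted p under 0.05, where 24.4% of all 15333 genes tested were lower and 26.5% were higher. With the further requirement of at least a 2-fold change (DEGs), 3 were lower and 0 higher, against 11.2% and 12.8% of all genes. Treated and control libraries did not overlap for 8 of the 10 genes, and 57.5% of all genes likewise did not overlap. The median log2 fold change was -0.63 over the set and 0.03 over all genes tested.

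In GFP-negative cells, which hold the other cells of the same cultures, ACTB, CFL1 and DBN1 also fell and CFL2 also rose. Here 3 genes were lower and 1 was higher, with 16.2% and 15.3% of all 15513 genes. ACTB alone passed the 2-fold limit, so that 1 gene of the set was a lower DEG and 0 were higher DEGs, where 9.75% and 8.59% of all genes were. Groups did not overlap for 5 of the 10 genes and for 46.6% of all genes. The median log2 fold change was -0.42 over the set and -0.01 over all genes.

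ACTB (hg38 chr7:5526409-5563902, minus strand, 6 exons) encodes beta-actin, the actin enriched at leading edges and growth cones. Control GFP-positive libraries read 8373, 9960.3 and 7617 CPM and treated GFP-positive libraries 2625, 3801 and 2676 CPM. In GFP-negative cells the control libraries read 11922, 10701 and 10087 CPM, and the treated libraries 4456, 5041 and 4368 CPM. The highest treated library lay below the lowest control library in both fractions. ACTB fell by 1.44 on the log2 scale in GFP-positive cells (SE 0.17, 95% interval -1.79 to -1.10, adjusted p = 9.7e-09). The fall in GFP-negative cells was also past the threshold, where ACTB fell by 1.26 (SE 0.12, 95% interval -1.52 to -0.99, adjusted p = 9.3e-05).

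ACTG1 (hg38 chr17:81509413-81523847, minus strand, 6 exons) encodes gamma-actin, which differs from beta-actin in a few residues near its start. Control GFP-positive libraries read 13009, 18074 and 12654 CPM and treated GFP-positive libraries 7389, 10208 and 7351 CPM, with no overlap. The GFP-negative libraries read 14684, 16405 and 15812 CPM in control and 13631, 12173.5 and 16337 CPM in treated cells, and these overlapped. ACTG1 fell by 0.74 on the log2 scale in GFP-positive cells (SE 0.17, 95% interval -1.09 to -0.40, adjusted p = 4.4e-04). In GFP-negative cells the log2 fold change was -0.18 (95% interval -0.44 to 0.09, adjusted p = 0.30). It passed the threshold as lower without treated GFP-negative replicate 3 (log2 fold change -0.31, adjusted p = 0.040), and was -0.078 without treated GFP-negative replicate 2 (adjusted p = 0.65) and -0.047 with the GC trend described below removed (adjusted p = 0.81).

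The proximal promoter of ACTG1 (RefSeq, GRCh38.p14, chr17:81512750-81513049, minus strand) is shown because it was the only promoter window of the set with a CArG box, the binding motif of SRF. Capitals mark the box, which begins 94 bases before the start site.
ACTG1 promoter: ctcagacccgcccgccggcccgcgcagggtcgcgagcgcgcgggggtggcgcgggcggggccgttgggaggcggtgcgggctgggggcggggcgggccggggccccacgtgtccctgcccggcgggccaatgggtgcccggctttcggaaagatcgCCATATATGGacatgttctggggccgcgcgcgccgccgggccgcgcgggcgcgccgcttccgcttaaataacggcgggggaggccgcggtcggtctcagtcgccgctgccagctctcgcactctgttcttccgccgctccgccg

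Windows of 300 bases, from 250 before to 50 after the start site, matched 8 of the 10 genes. ACTB and PFN2 were not among them. The CArG box is palindromic, so both strands were read at the same time, and 1 of the 8 windows held it, where 1.29% of all 27305 windows did. A match of these letters does not show binding, and the absence of a match says only that the letters are not in the window.

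Both actins were set against each other within each library. The ratio of ACTG1 to ACTB counts, which does not depend on library scaling, was 1.55, 1.66 and 1.81 in control GFP-positive libraries and 2.69, 2.75 and 2.81 in treated ones. The same ratio in GFP-negative cells was 1.23, 1.53 and 1.57 in control and 2.42, 3.06 and 3.74 in treated libraries. Treated and control ratios did not overlap in either fraction, with a two-sided exact permutation p of 0.1 in each, which is the smallest p that 3 against 3 libraries allow.

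**Figure D2:**
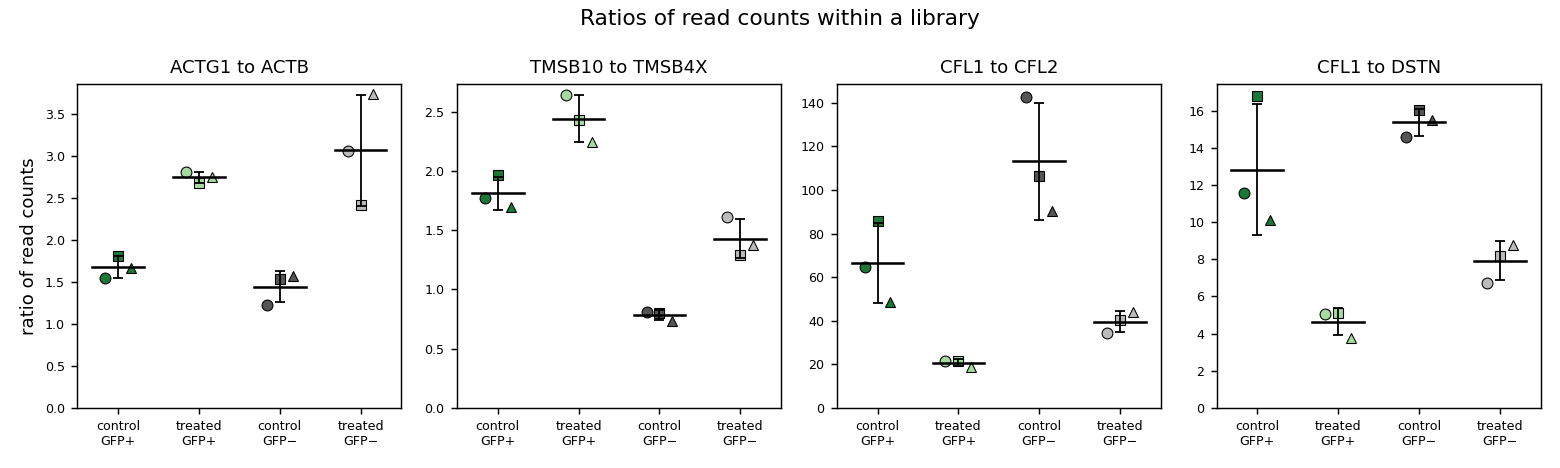
Ratio of raw read counts of 4 gene pairs in each library (vertical axis from 0, no unit), with replicates 1, 2 and 3 as circles, squares and triangles, the mean as a line and 1 SD as a bar. In both sort fractions ACTG1 to ACTB and TMSB10 to TMSB4X are higher in treated than in control libraries, and CFL1 to CFL2 and CFL1 to DSTN are lower. The ratios are not adjusted for GC content.

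The cofilin family is described next. CFL1 (hg38 chr11:65823022-65862026, minus strand), the main non-muscle cofilin, read 2237, 2727 and 1926 CPM in control GFP-positive and 921, 1159 and 887 CPM in treated GFP-positive libraries. CFL1 in GFP-negative cells read 3116, 2584 and 2380.2 CPM in control and 1446, 1496 and 1790.0 CPM in treated libraries. The groups did not overlap in either fraction. CFL1 fell by 1.15 on the log2 scale in GFP-positive cells (SE 0.17, 95% interval -1.49 to -0.81, adjusted p = 5.7e-07). For GFP-negative cells the gene fell by 0.79 (SE 0.15, 95% interval -1.13 to -0.45, adjusted p = 0.0036).

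CFL2 (hg38 chr14:34709113-34714823, minus strand), known as the muscle cofilin, was present at a far lower level. It read 34.5, 31.9 and 39.5 CPM in control GFP-positive and 42.7, 53.8 and 47.4 CPM in treated GFP-positive libraries. GFP-negative libraries read 21.8, 24.2 and 26.4 CPM in control and 42.1, 37.2 and 40.8 CPM in treated libraries, again with no overlap. CFL2 rose by 0.51 on the log2 scale in GFP-positive cells (SE 0.17, adjusted p = 0.015) and by 0.71 in GFP-negative cells (SE 0.17, adjusted p = 0.010). The GFP-positive call was lost without control replicate 1, control replicate 2 or treated replicate 2 (adjusted p = 0.053, 0.074 and 0.094), and the GFP-negative call without control replicate 2 or treated replicate 1 (adjusted p = 0.056 and 0.072). The summed level of 5 skeletal muscle markers was 4.61 to 5.74 CPM in control and 6.60 to 7.82 CPM in treated GFP-positive libraries, and 12.6 to 21.2 CPM and 53.7 to 61.7 CPM in the GFP-negative ones, with 1 or 2 of the 5 markers at or under 3 counts in all libraries of a group. The list did not move as a whole. In GFP-positive cells 0 of 2 tested markers changed. In GFP-negative cells 1 of 3 tested markers was higher and 0 were lower, with a median log2 fold change of 0.02. The part of these markers in the values of CFL2 was not tested.

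The value of CFL2 depended on the treatment of base composition. Its transcript is 34.8% GC, and genes in the lowest of 4 equal classes of GC content had a median log2 fold change of 0.47 in GFP-positive cells, while those in the highest class had -0.43. With this trend removed, the log2 fold change of CFL2 was -0.16 in GFP-positive cells (adjusted p = 0.40) and 0.33 in GFP-negative cells (adjusted p = 0.16). Whether the trend is technical or belongs to the response was not tested.

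DSTN (hg38 chr20:17570075-17609919, plus strand), which encodes destrin or ADF, ranged from 162 to 194 CPM in control and from 183 to 234 CPM in treated GFP-positive libraries. In GFP-negative cells it ranged from 153 to 213 CPM in control and from 182 to 214 CPM in treated libraries, so groups overlapped in both fractions. The log2 fold changes were 0.31 (95% interval -0.02 to 0.63, adjusted p = 0.11) and 0.16 (95% interval -0.22 to 0.55, adjusted p = 0.50). With the GC trend removed they were -0.10 and -0.07, and leaving out single libraries gave GFP-negative values between 0.073 (control replicate 3 removed) and 0.33 (control replicate 1 removed). With library size alone DSTN passed the threshold as higher in GFP-positive cells (log2 fold change 0.41, adjusted p = 0.028).

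CFL1 was also set against its relatives within each library. The ratio of CFL1 to DSTN counts averaged 12.8 ± 3.5 in control and 4.64 ± 0.74 in treated GFP-positive libraries (SD, n = 3). Among GFP-negative libraries it averaged 15.4 ± 0.7 in control and 7.92 ± 1.05 in treated libraries (SD, n = 3). CFL1 to CFL2 averaged 66.4 ± 18.4 and 20.6 ± 1.7 in GFP-positive cells and 113 ± 27 and 39.5 ± 4.8 in GFP-negative cells, control first (SD, n = 3). No treated ratio overlapped a control ratio of its fraction, and each of these comparisons gave the smallest exact permutation p, 0.1. The ratios were not adjusted for the GC trend, and the CFL1 transcript is 55.5% GC, against 34.8% for CFL2 and 40.7% for DSTN. With that trend removed, the log2 fold changes of CFL1, CFL2 and DSTN were -0.91, -0.16 and -0.10 in GFP-positive cells. In GFP-negative cells they were -0.64, 0.33 and -0.07.

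Among the monomer-binding proteins, PFN2 (hg38 chr3:149964904-150050788, minus strand), the profilin enriched in neurons, read 329, 407 and 424 CPM in control GFP-positive and 225, 264 and 280.2 CPM in treated GFP-positive libraries. It fell by 0.53 on the log2 scale (SE 0.16, 95% interval -0.85 to -0.20, adjusted p = 0.0063), with no overlap. That call was lost without treated GFP-positive replicate 1 (adjusted p = 0.054). In GFP-negative cells, where control libraries ranged from 268 to 316 CPM and treated libraries from 245 to 269 CPM, the log2 fold change was -0.21 (95% interval -0.53 to 0.11, adjusted p = 0.29). With the GC trend removed the values were -0.88 in GFP-positive cells (adjusted p = 3.3e-05) and -0.39 in GFP-negative cells, where PFN2 then passed the threshold (adjusted p = 0.043).

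TMSB4X (hg38 chrX:12975110-12977227, plus strand), thymosin beta 4, read 1955, 1658 and 1444 CPM in control GFP-positive and 763, 1099.9 and 1014 CPM in treated GFP-positive libraries. It fell by 0.75 on the log2 scale (SE 0.17, 95% interval -1.09 to -0.41, adjusted p = 3.6e-04), with no overlap. In GFP-negative cells it read 3902, 2394 and 2122 CPM in control and 1707, 1672 and 2108 CPM in treated libraries. Control replicate 1 stood far above the other libraries, and the lowest control value lay just above the highest treated value. The log2 fold change there was -0.64 (SE 0.22, adjusted p = 0.052). That value ranged from -0.81 to -0.32 over 15 alternatives, with adjusted p from 0.015 to 0.15, and passed the threshold in 6 of them. The value was -0.32 without control GFP-negative replicate 1, the high library (adjusted p = 0.11), and -0.81 without control GFP-negative replicate 3 (adjusted p = 0.015).

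TMSB10 (hg38 chr2:84905656-84906671, plus strand), thymosin beta 10, ranged from 2448 to 3465 CPM in control and from 2017 to 2676 CPM in treated GFP-positive libraries. In GFP-negative cells it read 3146, 1926 and 1556 CPM in control and 2759, 2162 and 2905 CPM in treated libraries, and groups overlapped in both fractions. The log2 fold changes were -0.33 (95% interval -0.67 to 0.01, adjusted p = 0.096) and 0.22 (95% interval -0.32 to 0.76, adjusted p = 0.53). Without control GFP-negative replicate 1, which was high for both thymosins, the GFP-negative value was 0.56 (adjusted p = 0.027), and without control GFP-negative replicate 3 it was 0.018 (adjusted p = 0.96). It was 0.13 without control GFP-negative replicate 2 (adjusted p = 0.80) or treated GFP-negative replicate 3 (adjusted p = 0.77). In GFP-positive cells TMSB10 passed the threshold as lower without control replicate 3 (log2 fold change -0.47, adjusted p = 0.034) or without treated replicate 2 (log2 fold change -0.45, adjusted p = 0.033), and stood at -0.16 with the GC trend removed (adjusted p = 0.38).

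The ratio of TMSB10 to TMSB4X counts separated all 4 groups. It averaged 1.81 ± 0.14 in control and 2.44 ± 0.20 in treated GFP-positive libraries, and 0.781 ± 0.042 in control and 1.43 ± 0.17 in treated GFP-negative libraries (SD, n = 3). The 3 comparisons between 2 groups each gave an exact permutation p of 0.1, the smallest possible.

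ENAH (hg38 chr1:225486765-225653142, minus strand), an Ena/VASP protein that protects growing barbed ends, ranged from 97.3 to 131 CPM in control and from 83.6 to 85.5 CPM in treated GFP-positive libraries. These did not overlap, while the test gave a log2 fold change of -0.34 (95% interval -0.67 to -0.01, adjusted p = 0.075). In GFP-negative cells ENAH ranged from 72.9 to 131 CPM in control and from 57.5 to 82.8 CPM in treated libraries, with a log2 fold change of -0.63 (95% interval -1.15 to -0.11, adjusted p = 0.065). ENAH passed the threshold as lower with the GC trend removed, at -0.74 in GFP-positive cells (adjusted p = 1.1e-04) and -0.81 in GFP-negative cells (adjusted p = 0.015). It also passed in GFP-positive cells without control replicate 2 (adjusted p = 0.038), and in GFP-negative cells without control replicate 1 (adjusted p = 0.012) or treated replicate 2 (adjusted p = 0.047). DESeq2 called ENAH lower in GFP-positive (-0.37, adjusted p = 0.043) and GFP-negative cells (-0.63, adjusted p = 0.041). So did the edgeR fit of all 12 libraries in GFP-negative cells (-0.61, adjusted p = 0.025). The smallest falls were -0.23 in GFP-positive cells without control replicate 3 (adjusted p = 0.28) and -0.42 in GFP-negative cells without control replicate 3 (adjusted p = 0.16).

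DBN1 (hg38 chr5:177456608-177474401, minus strand) encodes drebrin, a side-binding protein of growth cones and dendritic spines. Control GFP-positive libraries read 1364, 1656 and 1334 CPM and treated GFP-positive libraries 641, 732 and 575 CPM. In GFP-negative cells the control libraries read 1310, 1299 and 1070.1 CPM and the treated libraries 649, 690.0 and 575 CPM. Treated libraries lay below all control libraries in both fractions. DBN1 fell by 1.09 on the log2 scale in GFP-positive cells (SE 0.16, 95% interval -1.42 to -0.77, adjusted p = 7.0e-07). DBN1 in GFP-negative cells fell by 0.96 (SE 0.15, 95% interval -1.30 to -0.62, adjusted p = 0.0014). Its transcript is the most GC-rich of the set at 60.9% GC, and with the GC trend removed the values were -0.70 and -0.72, both past the threshold of the adjusted p.

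**Figure D3:**
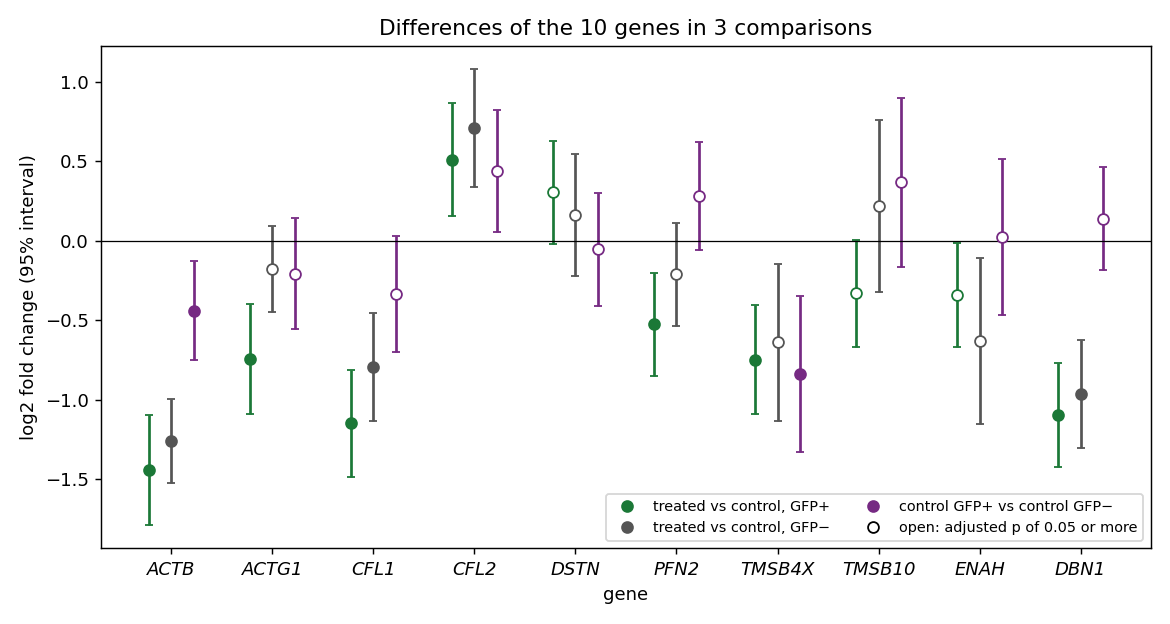
Log2 fold change (vertical axis, points) with 95% interval (bars) of the 10 genes for treated against control GFP-positive (green), treated against control GFP-negative (grey) and control GFP-positive against control GFP-negative libraries (purple); filled points have an adjusted p under 0.05. ACTB, CFL1, DBN1 and CFL2 are filled in both treatment comparisons, and the intervals of each gene from the 2 fractions overlap.

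**Figure D4:**
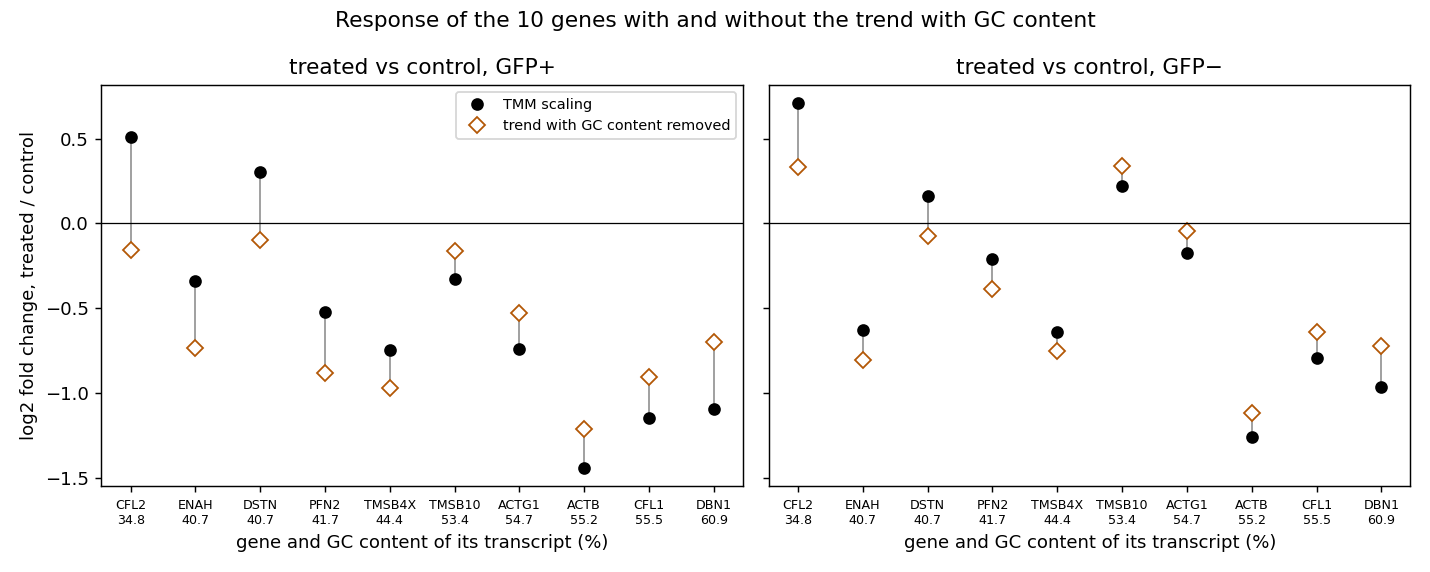
Log2 fold change of treated against control (vertical axis) in GFP-positive (left) and GFP-negative cells (right) with TMM scaling (black) and with the trend with GC content removed (open diamonds); genes are ordered by the GC content of their transcript, given in percent. CFL2 and DSTN, at 34.8% and 40.7% GC, change sign in GFP-positive cells, whereas ACTB, CFL1 and DBN1 stay between -1.44 and -0.70 there.

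Whether the response differed between the fractions was tested as an interaction term in 1 fit of all 12 libraries. None of the 10 genes passed (0 by edgeR and 0 by DESeq2), where 0.968% and 1.22% of all 16226 genes were called with a higher and a lower value in GFP-positive cells. Without adjustment, 1 gene was under 0.05. This was ACTG1, whose log2 responses differed by -0.66, lower in GFP-positive cells (95% interval -1.14 to -0.18, adjusted p = 0.15 by edgeR). For ACTB the difference was -0.27 (95% interval -0.72 to 0.17) and for DBN1 -0.22 (95% interval -0.65 to 0.21), so these intervals leave room for unequal responses. TMSB10 passed without control GFP-negative replicate 1 (difference -0.96, adjusted p = 0.047), which is the library that stood high for the thymosins. A fit with the culture as a replicate block also called 0 of the 10 genes.

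To ask how motor neurons differed from the other cells before exposure, the control fractions were compared. ACTB was lower in GFP-positive than in GFP-negative libraries, with a log2 difference of -0.44 (SE 0.14, 95% interval -0.75 to -0.13, adjusted p = 0.030). TMSB4X was also lower, with a log2 difference of -0.84 (SE 0.22, 95% interval -1.33 to -0.34, adjusted p = 0.013). These were the 2 lower genes of the set, with 0 higher, where 23.1% of all 15404 genes were lower and 17.1% higher, and 0 of the set were DEGs, where 15.3% were lower and 7.47% higher DEGs. Groups did not overlap for 5 of the 10 genes, against 53.2% of all genes. The call of ACTB was lost without any of 4 libraries (control GFP-negative replicates 2 and 3, control GFP-positive replicates 1 and 3) and that of TMSB4X without control GFP-positive replicate 2 or 3 (adjusted p = 0.060 and 0.065).

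GFP-positive and GFP-negative libraries of the same number were taken as pairs, with deviations that correlated at 0.12 to 0.38 in control cells. Libraries of different numbers were not set beside them. With the culture as a replicate block, 2 genes of the set were higher in GFP-positive cells. These were CFL2 (log2 difference 0.44, adjusted p = 0.020) and TMSB10 (log2 difference 0.41, adjusted p = 0.032), beside the same count of 2 lower genes. Without the block their values were 0.44 (adjusted p = 0.066) and 0.37 (adjusted p = 0.25). TMSB10 also passed without control GFP-negative replicate 1 (log2 difference 0.70, adjusted p = 0.0028), and CFL2 without control GFP-negative replicate 3 (log2 difference 0.53, adjusted p = 0.036). DBN1, PFN2 and ENAH had log2 differences of 0.14, 0.28 and 0.02, none past the threshold with or without the block. In the fit of all 12 libraries PFN2 (0.39, adjusted p = 0.037) and CFL2 (0.55, adjusted p = 0.010) passed as higher, and ACTB was no longer called (-0.33, adjusted p = 0.080).

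Beyond the 10 genes, 133 other genes of the actin system were grouped by role into 12 lists. Of the 127 tested in GFP-positive cells, 47 were lower and 23 higher after treatment, where 24.4% of all genes were lower and 26.5% higher, with a median log2 fold change of -0.15 beside 0.03 over all genes. In GFP-negative cells 26 were lower and 11 higher of 127, where 16.2% of all genes were lower and 15.3% higher, with a median of -0.10 beside -0.01. In GFP-negative cells these counts were 14 and 3 without control replicate 2, 25 and 19 without control replicate 3, 10 and 3 without treated replicate 1 and 19 and 5 without treated replicate 3. In control cells 45 of 127 were lower and 22 higher in GFP-positive than in GFP-negative libraries, where 23.1% of all genes were lower and 17.1% higher, so the higher count lay near the background, with a median of -0.15 beside -0.02. The counts of the single lists below stand against these same shares. The 22 became 34 without control GFP-negative replicate 3 and 35 with the culture as a replicate block.

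**Figure D5:**
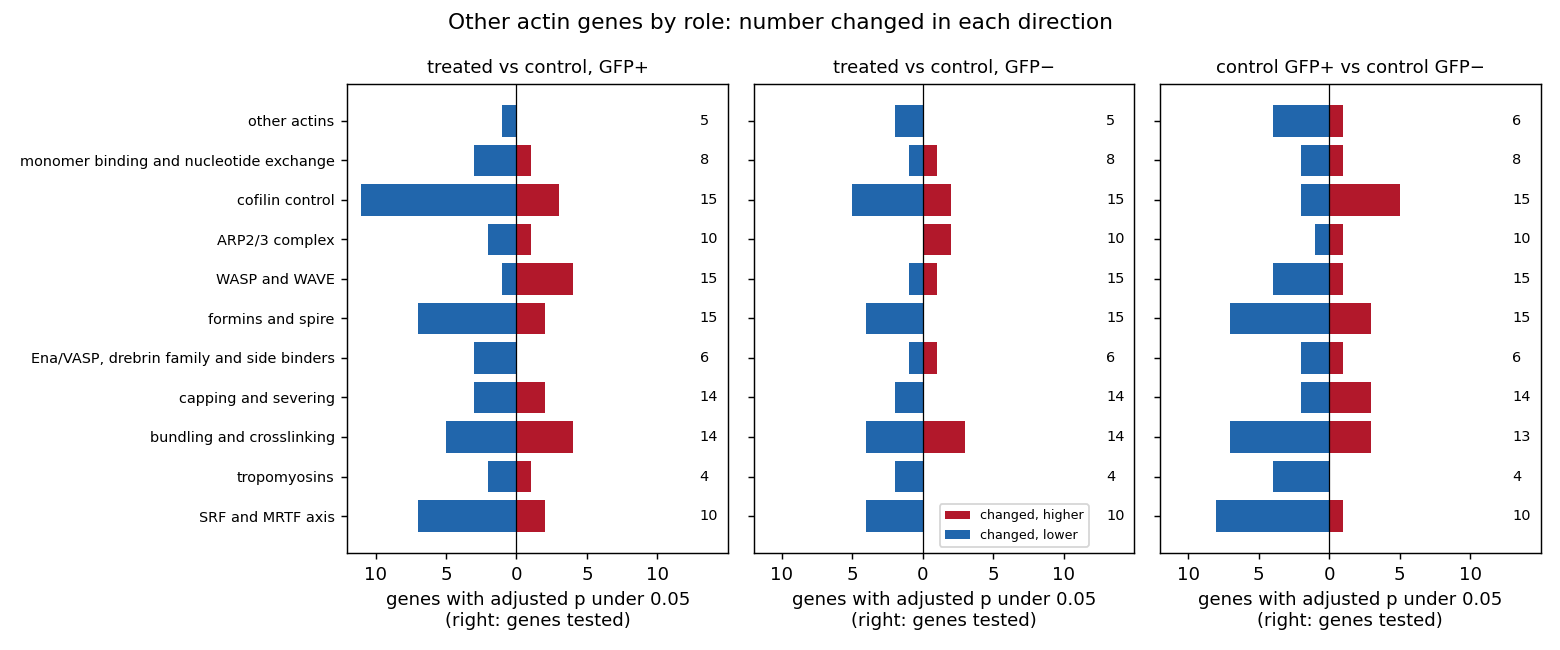
Number of genes of 11 of the 12 role lists with an adjusted p under 0.05 (horizontal axis), higher to the right in red and lower to the left in blue, for the 3 comparisons; the number at the right edge is the number tested. In treated GFP-positive cells the list of cofilin regulators has 11 lower and 3 higher genes of 15, and in the sort comparison 8 of 10 genes of the SRF and MRTF list are lower.

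Regulators of cofilin come first. In GFP-positive cells 11 of 15 fell and 3 rose, with a median log2 fold change of -0.50. CORO1A, a coronin that helps cofilin disassemble branched networks, fell from 91.6 ± 14.7 to 13.3 ± 0.7 CPM (SD, n = 3), a log2 fold change of -2.71 (adjusted p = 2.0e-14). TESK2, a kinase that phosphorylates and so inactivates cofilin, rose from 1.87 ± 0.21 to 3.54 ± 0.52 CPM (log2 fold change 0.99, adjusted p = 0.0051). In GFP-negative cells 5 fell and 2 rose, and CORO1A again fell most, by 2.28 on the log2 scale (adjusted p = 6.1e-04). CORO1A is also abundant in blood cells.

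Among the SRF and MRTF genes, 7 of 10 fell and 2 rose in GFP-positive cells, with a median log2 fold change of -0.84. TAGLN, a classical SRF target of smooth muscle, fell from 33.7 ± 3.1 to 14.5 ± 2.5 CPM (log2 fold change -1.15, adjusted p = 5.3e-06), and in GFP-negative cells from 288 ± 45 to 118 ± 19 CPM (log2 fold change -1.31, adjusted p = 7.9e-04). CNN1, calponin 1, rose in GFP-positive cells from 5.21 ± 0.24 to 10.9 ± 0.5 CPM (log2 fold change 1.13, adjusted p = 4.1e-05). SRF itself fell by 0.90 on the log2 scale in GFP-positive cells (adjusted p = 3.0e-05) and by 0.68 in GFP-negative cells (adjusted p = 0.015). In the sort comparison 8 of the 10 were lower in GFP-positive cells, led by CCN2 at a log2 difference of -3.42 (adjusted p = 1.4e-06). The summed level of 5 smooth muscle and myofibroblast markers was 64.8 to 74.0 CPM in control and 28.1 to 38.2 CPM in treated GFP-positive libraries, and 598 to 899 CPM and 249 to 321 CPM in the GFP-negative ones. TAGLN, CNN1 and ACTA2 belong to that marker list as well, and MYH11, a defining gene of smooth muscle, was listed at 0 in all 12 libraries, which does not by itself show that it was absent. In GFP-positive cells 2 of the 4 tested markers were lower and 1 was higher after treatment, and the part of such cells in these values was not tested.

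Of the 119 promoter windows found for these 133 genes, 9 (7.56%) held a CArG box, a search made after earlier values of these data were known. Their boxes are shown to set them beside that of ACTG1.
ACTA1: CCAAATATGG
ACTC1: CCAAATAAGG
ACTG2: CCTTATATGG and CCTTTTTAGG
FLNA: CCAATTAAGG
TPM4: CCAAATAAGG
SRF: CCATATAAGG and CCATAAAAGG
CNN2: CCTTATAAGG
FHL2: CCTTAAAAGG
ROCK2: CCTTAAATGG

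These genes did not share a direction after treatment in GFP-positive cells. In GFP-positive cells CNN2 (log2 fold change -0.89, adjusted p = 1.5e-05) fell like SRF, while TPM4 (0.55, adjusted p = 0.0034), FHL2 (0.89, adjusted p = 0.0056) and ROCK2 (0.56, adjusted p = 0.011) rose. Across the whole table, 27.7% of the 119 tested genes with such a promoter were lower and 35.3% higher in treated GFP-positive cells, and 24.7% and 27.1% of the 11534 tested genes without one were. In GFP-negative cells CNN2 fell (log2 fold change -1.25, adjusted p = 2.7e-04) like SRF, and ACTC1, the cardiac actin, fell (log2 fold change -1.54, adjusted p = 0.012), a call lost without treated GFP-negative replicate 1 or 2 (adjusted p = 0.061 and 0.052). In the sort comparison ACTG2, the enteric smooth muscle actin (log2 difference -4.09, adjusted p = 0.0020), ACTC1 (-2.63, adjusted p = 4.7e-04), FLNA (-2.14, adjusted p = 4.7e-06), CNN2, FHL2, TPM4 and SRF were lower in GFP-positive cells. Across the whole table, 31.2% of 128 tested genes with such a promoter were lower there and 18.0% higher, and 23.3% and 17.3% of 11593 without one were.

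Of the genes that cross-link or bundle filaments, 4 rose and 5 fell of 14 in GFP-positive cells. FLNC, filamin C, had the largest rise among the named genes, from 92.4 ± 20.4 to 1198 ± 185 CPM (log2 fold change 3.76, adjusted p = 7.0e-18). In GFP-negative cells it rose from 398 ± 70 to 2393 ± 321 CPM (log2 fold change 2.57, adjusted p = 2.1e-05). MARCKSL1, a membrane-bound actin cross-linker of neurons, fell from 2498 ± 246 to 881 ± 148 CPM (log2 fold change -1.44, adjusted p = 5.1e-09) and in GFP-negative cells from 2245 ± 461 to 874 ± 97 CPM (log2 fold change -1.38, adjusted p = 5.1e-04).

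Monomer-binding relatives of the set split as well. TMSB15A, another thymosin beta, fell from 101 ± 12 to 47.0 ± 9.1 CPM in GFP-positive cells (log2 fold change -1.03, adjusted p = 8.4e-06) and from 96.3 ± 22.7 to 36.9 ± 1.3 CPM in GFP-negative cells (log2 fold change -1.40, adjusted p = 7.0e-04). TWF1, twinfilin 1, rose in GFP-positive cells from 12.7 to 17.6 CPM in control to 28.1 to 39.8 CPM in treated libraries (log2 fold change 1.25, adjusted p = 2.1e-06). PFN1, the ubiquitous profilin, was lower in control GFP-positive than in control GFP-negative cells, at 629 ± 107 and 1356 ± 183 CPM (log2 difference -1.21, adjusted p = 2.8e-04). In that list 1 of 8 rose and 3 fell in GFP-positive cells, and 1 rose and 1 fell in GFP-negative cells.

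Of the nucleation factors, formins and spire genes fell in 7 and rose in 2 of 15 cases in GFP-positive cells, and fell in 4 and rose in 0 of 15 in GFP-negative cells. DIAPH2, a formin, rose in GFP-positive cells from 3.16 to 6.11 CPM in control to 9.02 to 9.88 CPM in treated libraries (log2 fold change 1.16, adjusted p = 1.3e-04). DAAM2, another formin, fell in GFP-negative cells from 7.61 ± 1.52 to 1.41 ± 0.55 CPM (log2 fold change -2.44, adjusted p = 8.6e-04). The ARP2/3 complex, which nucleates branches, had 1 higher and 2 lower of 10 genes in GFP-positive cells. WASP and WAVE genes, its activators, had 4 higher and 1 lower of 15, led upward by WIPF3 (log2 fold change 0.98, adjusted p = 1.1e-04).

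The tropomyosins, which coat filaments and shield them from cofilin, were all 4 lower in control GFP-positive than in control GFP-negative cells. TPM2 stood at 13.2 ± 0.6 and 142 ± 64 CPM there (log2 difference -3.52, adjusted p = 9.9e-06). After treatment TPM2 fell in GFP-positive cells (log2 fold change -1.15, adjusted p = 9.1e-05) and TPM1 in GFP-negative cells from 282 ± 37 to 120.0 ± 23.4 CPM (log2 fold change -1.25, adjusted p = 0.0010). TPM4 rose in GFP-positive cells from 271 ± 23 to 379 ± 32 CPM.

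The capping and severing list had 2 higher and 3 lower of 14 genes in GFP-positive cells. EPS8, a barbed-end capper, rose from 3.82 ± 0.35 to 9.32 ± 4.35 CPM (log2 fold change 1.36, adjusted p = 5.8e-05), and ADD2, beta-adducin, fell from 313 ± 30 to 165 ± 19 CPM (log2 fold change -0.86, adjusted p = 2.7e-05). ADD2 also fell in GFP-negative cells (log2 fold change -0.94, adjusted p = 0.0095). Next to ENAH and DBN1, the list of Ena/VASP proteins and side binders had 3 lower and 0 higher of 6 genes in GFP-positive cells, where LASP1, a LIM and SH3 protein of adhesion sites, fell from 285 ± 43 to 159 ± 7 CPM (log2 fold change -0.78, adjusted p = 1.0e-04).

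Of the other actins, ACTL6B, a neuronal subunit of chromatin remodelling complexes, fell from 169 ± 25 to 77.9 ± 15.1 CPM (log2 fold change -1.05, adjusted p = 3.8e-06). The smooth muscle actin ACTA2 was at 1.05 ± 0.21 CPM in control GFP-positive and 7.27 ± 1.42 CPM in control GFP-negative cells (log2 difference -2.89, adjusted p = 3.7e-05).

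Beyond the set the control fractions differed in several regulators. CAPG, a filament capper of motile cells, stood at 4.77 ± 0.85 CPM in GFP-positive and 46.8 ± 3.2 CPM in GFP-negative libraries (log2 difference -3.39, adjusted p = 1.5e-06). ARPC1B, an ARP2/3 subunit, stood at 16.2 ± 1.0 and 58.2 ± 5.2 CPM (log2 difference -1.95, adjusted p = 1.1e-05). Higher in GFP-positive cells were CORO2A, a coronin, at 45.0 ± 1.1 against 7.95 ± 1.24 CPM (log2 difference 2.40, adjusted p = 5.5e-06), TMOD1, a pointed-end capper, at 62.8 ± 8.8 against 13.9 ± 2.8 CPM (log2 difference 2.07, adjusted p = 2.5e-05), and CAP2, a cyclase-associated protein that recycles monomers, at 127 ± 23 against 31.8 ± 12.8 CPM (log2 difference 1.88, adjusted p = 6.6e-04). The spectrin SPTBN1 was also higher, at 556 ± 85 against 247 ± 60 CPM (log2 difference 1.06, adjusted p = 0.0026).

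The pattern of each of the 10 genes over the 12 libraries was also compared with that of 9640 expressed genes, by the root-mean-square difference of centred log2 values. DSTN was closest to DDX1 (0.079) and GLOD4 (0.083), against a median of 0.48 to all genes. The closest gene lies below such a median by construction. The difference also depends on a gene's own spread, 0.19 for DSTN and 0.75 for ACTB, so values are not comparable between genes. ACTB was closest to SERPING1 (0.13) and SPSB4 (0.14) with a median of 0.89, and CFL1 to BOP1 (0.099) and SELENOW (0.11) with a median of 0.74. Within the set ACTB and CFL1 were each other's nearest members, at 0.23. DBN1 was closest to SLC29A4 (0.097), TMSB4X to BOLA3 (0.10), ACTG1 to GPS1 (0.090), CFL2 to JKAMP (0.087), PFN2 to OGDH (0.097), TMSB10 to CCDC107 (0.14) and ENAH to F2R (0.14).

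Processed pseudogenes of these genes can draw reads away. The table held 5 pseudogene symbols of the set (3 of ACTG1, 1 of CFL1 and 1 of DSTN), whose counts reached at most 0.0378% of ACTG1 for ACTG1P20, 0.0685% of CFL1 and 2.50% of DSTN for DSTNP2. Adding them moved no call. Exact matches of 100-base windows of each transcript were sought elsewhere in hg38: TMSB4X had 205 of 523 windows (39.2%) with such a match on 3 chromosomes, DSTN 28 of 3306 (0.847%), ACTB 3 of 1713 (0.175%), and the other 7 genes 0. ACTB and ACTG1 shared 0 windows with each other. The level of TMSB4X therefore depends on how reads with several matches were counted, which is not given in the sources used here. Whether reads of the matching sites also bear on its comparison between groups was not tested, and no pseudogene symbol of TMSB4X was among those added.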

How the data were processed

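RNA of 12 sorted samples was sequenced, and the authors deposited raw read counts per gene symbol; the submitters' processing notes name HISAT2 and featureCounts, the build was hg38, and the strand and multi-mapping settings of the counting are not given in the sources used here. Replicates are biological replicates per the labels, which the study's methods take to be separate thaws of stored cells drawn from more than 1 differentiation; which library came from which is not given in the sources used here. No replicate pair of a group was alike within sampling noise (chi-square per degree of freedom 23.6 to 116).

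Counts were tested with edgeR 4.0.16 in R 4.3.3 (TMM scaling, quasi-likelihood F-test, filterByExpr with a minimum count of 10 and a minimum total of 15) in separate fits of 6 libraries per comparison, and of 12 for the interaction. P-values were adjusted by Benjamini-Hochberg over all genes tested, intervals are 95% intervals of the fitted coefficient, and the code was tested on simulated data. Ratios of counts were tested by exact permutation, two-sided. Alternatives were RLE scaling, library size alone, DESeq2 1.42.0, other count filters, a replicate block, a fit of all 12 libraries, removal of the GC trend (loess, span 0.5), pseudogene counts added, and each library left out. Lengths, GC content and positions came from the canonical transcripts of GENCODE 44, to which 25763 of 28278 symbols matched.

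The 10 genes, the lists of other actin genes and the marker lists were chosen with earlier results of these data known. Named regulators are the gene with the largest rise and the gene with the largest fall of each list among those past the adjusted p of 0.05, without overlap and with at least 1 CPM; some are given only as counts, 1 list is not reported on its own here, and the genes with a CArG box were named after the search. Deviations of same-numbered GFP-positive and GFP-negative libraries from their group means correlated at 0.38, 0.12 and 0.33 in control and 0.20, 0.24 and 0.48 in treated cells over 16226 genes, so the numbers were taken to pair the 2 fractions of a culture. Treated and control libraries of the same number correlated at -0.04, 0.16 and 0.20 in GFP-positive and -0.03, 0.30 and -0.02 in GFP-negative cells, and were not taken as pairs. These values overlap those of the 2 fractions, and libraries of different numbers were not set beside them. Whether treated and control libraries share a thaw is therefore not settled.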

Additional observations from a re-analysis of the deposited data

Results flagged for a closer look

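The interaction test of edgeR found 3 of 129 tested actin regulators (2 higher and 1 lower) whose response to treatment differed between the fractions, a share near that of all 16226 genes (0.968% higher and 1.22% lower), and none of them belongs to the set of 10 genes. CNN1 rose in GFP-positive cells, where its level was low, and read 48.4 ± 9.4 CPM in control and 36.4 ± 1.7 CPM in treated GFP-negative cells (SD, n = 3), a difference between the 2 log2 responses of 1.48 (adjusted p = 0.0043). FLNC rose in both fractions, by 1.11 more on the log2 scale in GFP-positive cells (adjusted p = 0.039), and this call was lost without any of 8 of the 12 libraries (adjusted p up to 0.11). VASP, an Ena/VASP protein like ENAH, read 87.7 ± 15.7 CPM in control and 70.7 ± 1.8 CPM in treated GFP-positive cells and rose from 112 ± 12 to 174 ± 13 CPM in GFP-negative cells (SD, n = 3), a difference of -0.95 (adjusted p = 0.030). The call of VASP was lost without any of 9 libraries (adjusted p up to 0.14), with library size alone (-0.68, adjusted p = 0.12), with at least 10 counts in every library (-0.79, adjusted p = 0.056) and with the GC trend removed (-0.70, adjusted p = 0.091).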

How the results depend on the processing

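In both treatment comparisons the falls of ACTB, CFL1 and DBN1 kept direction and threshold under every alternative run. Other calls depended on the GC trend, single libraries, the scaling, the count filter, the tool, the replicate block or the fit of all 12 libraries. The cause of the changes listed here was not tested.

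With the GC trend removed, 0 of the 10 genes were higher in either treatment comparison, 1 was a lower DEG in GFP-positive cells and 6 were lower in GFP-negative cells. Log2 fold changes that turned were CFL2 (-0.16) and DSTN (-0.10) in GFP-positive cells, DSTN (-0.072) in GFP-negative cells, ENAH between the control fractions (-0.026), and DSTN (-0.021) and DBN1 (0.012) in the interaction, where 252 genes of all were higher. With library size alone, 2 of the 10 genes were higher in GFP-positive cells and 2 were lower DEGs in GFP-negative cells. It moved the median log2 value of all genes from 0.03 to 0.14 in GFP-positive cells and from -0.05 to 0.20 in the interaction, where TMSB4X (0.045) and DBN1 (0.033) turned, 0 regulators were lower, and 266 genes were higher and 84 lower in place of 157 and 198. That is 76.0% higher of those called, against 44.2%; it was 68.9% with at least 10 counts in every library and 56.6% with the GC trend removed. In GFP-positive cells the share of higher calls was 60.0% with library size alone and 52.0% with TMM.

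With DESeq2, 5 of the 10 genes were lower in GFP-negative cells, 1 was higher between the control fractions, and the interaction called 5 regulators lower and 407 genes higher and 391 lower. The fit of all 12 libraries called 5 genes of the set lower in GFP-negative cells and 2 higher and 1 lower between the control fractions, with DSTN at 0.049. In the interaction 2 regulators were lower with no filter, and 0 regulators and 105 genes were lower with at least 10 counts in every library.

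With the replicate block, 2 genes of the set and 35 regulators were higher between the control fractions, and the interaction called 4 regulators higher and 11 lower and 519 genes higher and 745 lower. For treated against control the numbers were not taken to pair the libraries. The block gave 1 higher and 7 lower genes in GFP-positive cells, where TMSB10 passed (-0.32, adjusted p = 0.048), and 1 higher and 3 lower in GFP-negative cells.

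With each library left out, genes of the set called higher numbered 0 to 1 in GFP-positive and 0 to 2 in GFP-negative cells, lower DEGs 1 to 2 in GFP-negative cells, and between the control fractions 0 to 1 were higher and 0 to 2 lower. In GFP-negative cells 3 to 19 regulators were higher and 10 to 31 lower, the 31 without control replicate 1. Of all genes 1356 to 2776 were higher and 1414 to 2760 lower there, the lowest without treated replicate 1 and the highest without control replicate 3. Between the control fractions 15 to 34 regulators were higher. DSTN ranged from -0.12 to 0.10 and ENAH from -0.18 to 0.26 there. In the interaction 0 to 1 gene of the set was lower, 1 to 2 regulators were higher and 0 to 2 lower, and 68 to 212 genes were higher and 47 to 202 lower, with DSTN at -0.083 to 0.31, TMSB4X at -0.49 to 0.10, ENAH at -0.011 to 0.42 and DBN1 at -0.31 to 0.022.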
